A study of Mus musculus with 21 samples.

Results

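Malat1, Neat1, Miat, Snhg1, Snhg3, Snhg12, Gas5, Mir17hg, Dleu2 and Pvt1 are long noncoding RNAs (lncRNAs) that are either kept in the nucleus or carry small RNAs in their transcripts. They were found by matching the gene identifiers of the deposited count table to these 10 symbols. All 10 were present among the 48440 genes, 9 passed the filter on low counts, and Miat did not. Each was followed in every deposited column, every biological replicate, 6 groups and the treatment contrasts of 3 mouse cell lines. Malat1 was already known to differ between lanes of the same library when the genes were chosen, so its lane values are given as a description.

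The study changed the amount of Esrp2-as, an RNA antisense to Esrp2, and measured total RNA after removal of ribosomal RNA. In 3T3-L1, a preadipocyte line, Esrp2-as overexpression was set against an empty vector control with 2 replicates each. In M27H4, a line from a mammary tumour of a C3(1)SV40 TAg mouse, Esrp2-as overexpression was set against an empty vector control with 3 replicates each. In M6, another such tumour line, knockdown of Esrp2-as with LNA antisense gapmers was set against a control that the labels also call an empty vector control, with 2 replicates each. All lines grew in DMEM with FCS, and both tumour lines come from mice whose model carries SV40 T antigen. Each line stands for itself only, and nothing in the labels says whether replicates were separate cultures, so p-values measure the spread between these samples.

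Malat1 is an abundant nuclear RNA found in speckles, the nuclear bodies rich in splicing factors. RNase P cuts a tRNA-like RNA from its 3′ end, and an A-rich tract just before the cut folds into a triple helix that protects the new end in place of a poly(A) tail. Neat1 has a short form and a long form that share their start, and the long form is the scaffold of paraspeckles. Miat, also called Gomafu, is a nuclear RNA best known from neurons. Snhg1, Snhg3, Snhg12 and Gas5 carry small nucleolar RNAs (snoRNAs), guides for the chemical modification of ribosomal and other RNAs, in their introns. Their spliced exons are mostly short-lived: Gas5 starts with a terminal oligopyrimidine tract, is bound by ribosomes and is then removed by nonsense-mediated decay. Mir17hg is the primary transcript of the miR-17-92 cluster, Dleu2 carries miR-15a and miR-16, and Pvt1 lies beside the oncogene Myc.

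Depth ran between 34892461 and 138313667 counts over the 21 columns and between 34892461 and 328493417 over the 14 replicates. Levels are given as CPM, a gene's count scaled to the size of its library. Esrp2-as stood at 45.8 and 35.5 CPM in 3T3-L1 overexpression, against 0.250 and 0.355 CPM in 3T3-L1 controls. It stood at 61.2, 65.8 and 15.9 CPM in M27H4 overexpression, against 0.731, 1.25 and 0.889 CPM in M27H4 controls, and at 0.527 and 0.851 CPM in M6 knockdown, against 2.96 and 2.42 CPM in M6 controls. The summed level of 7 fibroblast markers was 5796 to 7384 CPM in 3T3-L1, 786 to 1074 CPM in M27H4 and 28.2 to 60.3 CPM in M6. That of 6 epithelial markers was 20.4 to 27.7 CPM in 3T3-L1, 148 to 283 CPM in M27H4 and 3422 to 5025 CPM in M6, so the epithelial markers were low in the M27H4 libraries although that line comes from a mammary tumour. The summed level of 4 endothelial markers was 21.5 to 32.2 CPM in M27H4 and at most 2.05 CPM elsewhere. These markers did not move together. Their median log2 fold change was -0.31 for M27H4 control against M6 control and 3.07 for 3T3-L1 control against M27H4 control. The summed level of 5 immune markers was at most 3.11 CPM. In bulk RNA, fewer cells of a type and less RNA per cell cannot be told apart.

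The mature microRNAs of both host genes are shown because Mir17hg had the largest difference between lines among the 9 tested genes. They were taken from RefSeq on GRCm38.p6, are written 5′ to 3′, and have the seed, bases 2 to 8, in capitals. All 8 mature sequences looked for were matched. Those of Mir17hg lie on the plus strand from base 115043684 to base 115044496 of chromosome 14, and those of Dleu2 on the minus strand from base 61631936 to base 61632096 of the same chromosome. The first pair shares a seed, and miR-18a differs from it within the seed.
miR-17-5p: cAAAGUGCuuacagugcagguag
miR-20a-5p: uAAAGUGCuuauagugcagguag
miR-18a-5p: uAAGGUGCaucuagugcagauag
The miR-19 pair shares another seed, and miR-92a has its own.
miR-19a-3p: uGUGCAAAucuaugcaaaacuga
miR-19b-3p: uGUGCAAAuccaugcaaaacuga
miR-92a-3p: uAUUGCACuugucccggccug
Both microRNAs of Dleu2 share a seed that none of the Mir17hg set has.
miR-15a-5p: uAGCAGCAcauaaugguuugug
miR-16-5p: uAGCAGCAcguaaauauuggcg
The values below are those of the host transcripts, not of the mature microRNAs.

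The 3′ end of the long Malat1 transcript is shown because counts of that transcript carry most of the Malat1 differences described below. The 180 bases at chr19:5795912-5796091, minus strand, of GRCm38 were taken from the GENCODE M21 transcript and are written 5′ to 3′. The 18-base A-rich tract is in capitals, and the tRNA-like part follows the tract.
Malat1 3′ end: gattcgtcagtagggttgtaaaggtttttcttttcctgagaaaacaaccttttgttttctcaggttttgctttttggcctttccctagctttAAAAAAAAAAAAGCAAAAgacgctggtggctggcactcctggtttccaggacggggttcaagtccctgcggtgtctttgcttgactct
The annotated transcript goes on for 292 bases after the tract.

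The starts of 3 snoRNA hosts that differed between lines are shown next, from RefSeq on GRCm38.p6, with the transcribed bases in capitals. They come from chr19:8723447-8723526 for Snhg1, chr4:132308638-132308717 for Snhg12 and chr1:161035126-161035205 for Gas5, all on the plus strand.
Snhg1: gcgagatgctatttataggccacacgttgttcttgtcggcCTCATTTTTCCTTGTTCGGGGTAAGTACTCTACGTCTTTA
Snhg12: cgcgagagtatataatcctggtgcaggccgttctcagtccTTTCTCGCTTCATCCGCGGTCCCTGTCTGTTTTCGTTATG
Gas5: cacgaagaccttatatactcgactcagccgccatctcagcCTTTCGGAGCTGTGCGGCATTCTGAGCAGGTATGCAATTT
Each begins its transcribed part with C or T. The letters CACGTG, a motif that reads the same on both strands and that MYC and related factors bind, were searched in RefSeq promoters. They stood in 2349 of 32851 promoters (7.15%) and, among 9 promoters found for 8 of the 10 genes, in that of Dleu2 only.

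On GRCm38 with GENCODE M21, Malat1 lies at chr19:5795690-5802672 and Neat1 at chr19:5824708-5845478, both on the minus strand. Snhg1 lies at chr19:8723475-8726443 on the plus strand. Snhg12 lies at chr4:132308623-132311024 on the plus strand, with Snhg3 at chr4:132348014-132353686 on the minus strand. Gas5 lies at chr1:161034422-161038539, Mir17hg at chr14:115042879-115046727 and Pvt1 at chr15:62037986-62378096, all on the plus strand. Dleu2 lies at chr14:61602839-61682373 and Miat at chr5:112213228-112229395, both on the minus strand. The setting of the counting for strand was not stated, so the levels of genes with an overlapping partner are uncertain: Snhg3 shares its locus with Rcc1 on the same strand and Gm17300 on the other, Gas5 overlaps Zbtb37, Dleu2 overlaps Trim13, Kcnrg and other genes, Malat1 overlaps Gm37376, Miat overlaps Gm26953 and Pvt1 overlaps H2afy3.

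Changing Esrp2-as was followed by no called change of any of the 9 lncRNAs. The test was edgeR's quasi-likelihood test across 21237 genes, and a call is a Benjamini-Hochberg adjusted p under 0.05. In 3T3-L1 overexpression against control 0 of 9 were called, where 0.00471% of all genes were, and 1 of the 9 had an unadjusted p under 0.05. In M27H4 overexpression against control 0 of 9 were called, where 0.00942% of all genes were, and 1 had an unadjusted p under 0.05. In M6 knockdown against control 0 of 9 were called, where 0.137% of all genes were, and 2 had an unadjusted p under 0.05. For the M27H4 overexpression effect minus the 3T3-L1 overexpression effect 0 of 9 were called, where 0.00471% of all genes were, and 1 had an unadjusted p under 0.05. DESeq2 also called 0 of the 9 in each of these 4 tests. With the replicate number as a block, which pairs same-numbered samples, 0 of the 9 were called in each. The treatment values given for single genes below come from the fit without the block. Over all genes the block gave 293 calls in M6, against 29 without it, and 1 in M27H4, against 2. It gave 0 in 3T3-L1 and 0 for the difference of effects, against 1 each. With so few calls over all genes, the counts of 0 say little about these RNAs in particular.

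Replicate values overlapped between treatment and control for most of the 9. The groups did not overlap for Malat1 and Mir17hg in 3T3-L1, both lower in overexpression, where 23.2% of all genes had separate groups. They did not overlap for Snhg1 in M27H4, higher in overexpression, where 5.1% of all genes had separate groups. They did not overlap for 3 genes in M6, where 26.4% of all genes had separate groups: Neat1 and Pvt1 were higher in the knockdown and Snhg3 was lower. In M6 replicate 2 the knockdown and control sums hold partly different lane codes, so treatment and lane cannot be fully told apart there.

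The lines themselves differed in several of these RNAs. Between 3T3-L1 control and M6 control 4 of 9 were called, against 39.4% of all genes, with Snhg1, Snhg12 and Pvt1 higher (20.5% of all genes were) and Gas5 lower (18.9%) in 3T3-L1. Between 3T3-L1 control and M27H4 control 4 of 9 were called, against 36.6% of all genes, with Mir17hg, Snhg1, Snhg12 and Pvt1 higher in 3T3-L1 (18.9% of all genes were, and 17.8% were lower). Between M27H4 control and M6 control 3 of 9 were called, against 30.2% of all genes, with Pvt1 higher (15.2% of all genes were) and Mir17hg and Gas5 lower (15%) in M27H4. These counts are near their backgrounds. The 3 comparisons share control samples, and the lines were partly sequenced under different lane codes, so line and lane cannot be fully told apart.

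**Figure D1:**
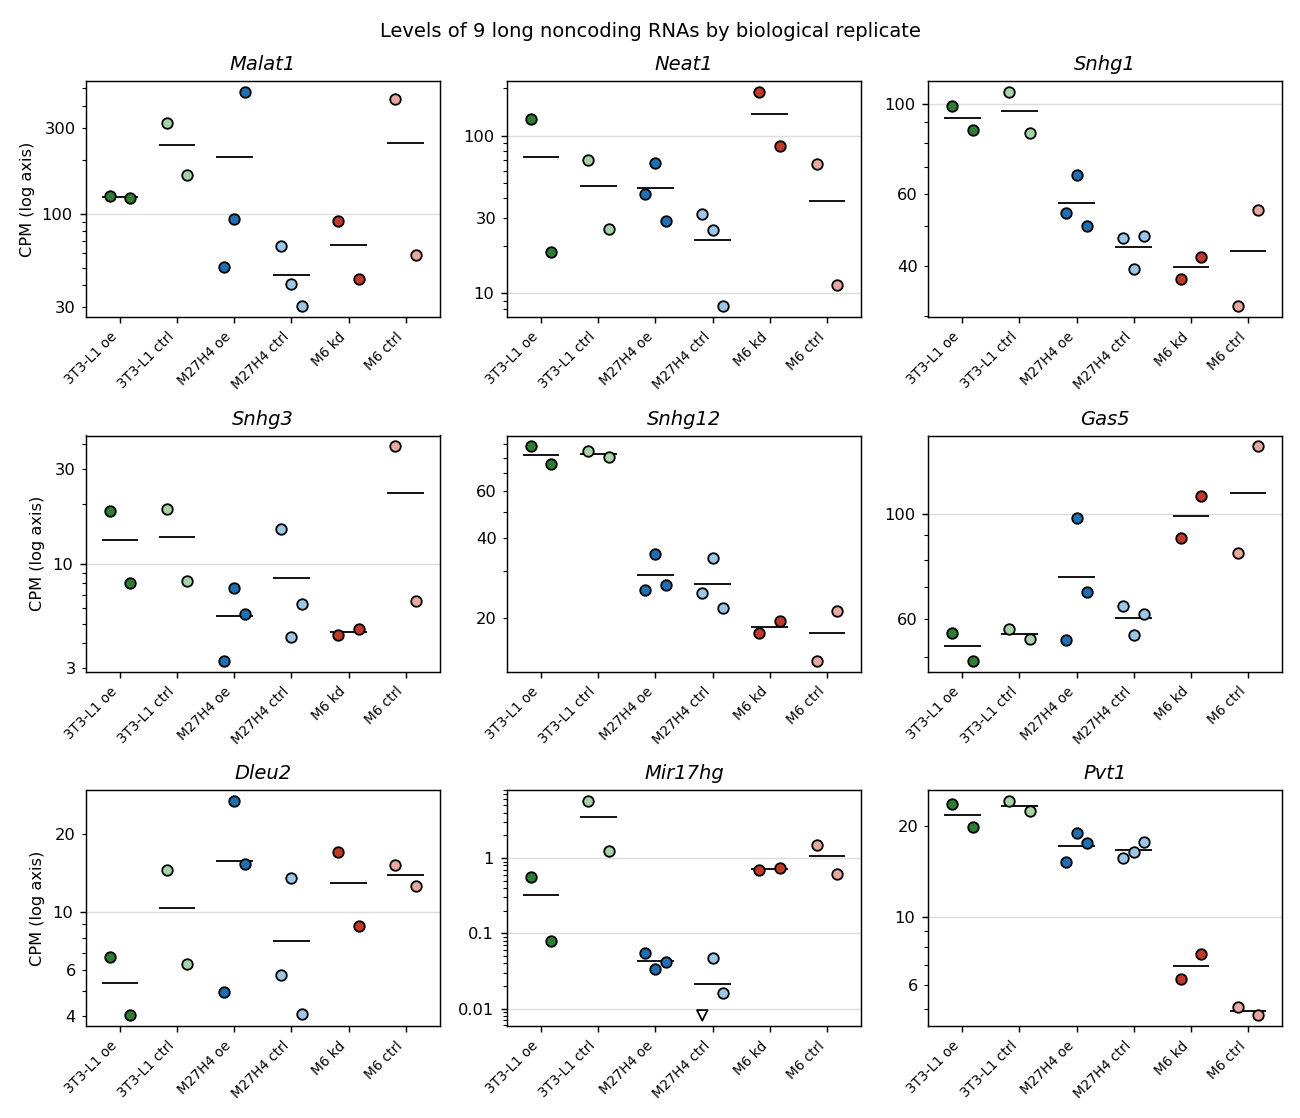
Level of 9 lncRNAs in CPM on a log axis, 1 point for each biological replicate and a line at the group mean; oe is overexpression, kd knockdown and ctrl control, and the open triangle is a replicate with 0 counts. Snhg1, Snhg12 and Pvt1 are highest in 3T3-L1 and spread less within most groups than Malat1, which runs from 30.3 to 479 CPM.

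Malat1 varied widely within groups. Its level was 124.8 and 122.7 CPM in 3T3-L1 overexpression, against 318.9 and 164.4 CPM in 3T3-L1 controls. In M27H4 it was 50.3, 93.3 and 479 CPM in overexpression, against 66.1, 40.6 and 30.3 CPM in controls. In M6 it was 90.7 and 43.4 CPM in knockdown, against 437.6 and 58.5 CPM in controls. Single replicates, M27H4 overexpression 3 and M6 control 1, thus stood far above the others of their groups. The log2 fold change was -0.97 (SE 1.12) in 3T3-L1, 2.18 (SE 0.95, adjusted p = 1 by edgeR) in M27H4 and -1.89 (SE 1.15) in M6. Without M27H4 overexpression replicate 3 the M27H4 value was 0.65.

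Between lines Malat1 averaged 241.7 ± 109 CPM in 3T3-L1 controls (SD, n = 2), 45.7 ± 18.4 CPM in M27H4 controls (SD, n = 3) and 248 ± 268 CPM in M6 controls (SD, n = 2). None of its line differences was called by edgeR over all 6 groups. The log2 fold change was 2.40 (SE 1.02, adjusted p = 0.0979) for 3T3-L1 against M27H4, whose replicates did not overlap, as for 60.6% of all genes. It was -2.44 (SE 1.02, adjusted p = 0.108) for M27H4 against M6. DESeq2 called both, at 2.44 (adjusted p = 0.0422) and -2.53 (adjusted p = 0.0393). Fitting only the groups compared, edgeR called 3T3-L1 against M27H4, at 2.42 (adjusted p = 0.00464).

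Neat1, the paraspeckle scaffold, also varied widely among replicates. It had 128.4 and 18.3 CPM in 3T3-L1 overexpression, against 69.9 and 25.6 CPM in 3T3-L1 controls. It had 42.7, 67.4 and 28.9 CPM in M27H4 overexpression, against 31.9, 25.3 and 8.25 CPM in M27H4 controls. It had 190.3 and 86.1 CPM in M6 knockdown, against 66.0 and 11.3 CPM in M6 controls. Only in M6 were the groups separate, and there the higher control, at 66.0 CPM, lay not far below the lower knockdown replicate, at 86.1 CPM. That knockdown replicate sums columns with different library codes, at 25.9 and 123.0 CPM of the column total. The first of these lay below the column of M6 control 1, at 71.4 CPM, so the separation depends on the summing. The log2 fold change was 0.62 (SE 1.09) in 3T3-L1, 1.09 (SE 0.90) in M27H4 and 1.84 (SE 1.12, adjusted p = 0.963 by edgeR) in M6. Its line differences were not called, with log2 fold changes of 0.31 for 3T3-L1 control against M6 control, 1.13 for 3T3-L1 control against M27H4 control and -0.82 for M27H4 control against M6 control.

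Miat was near the detection floor. It had 14 and 0 counts in 3T3-L1 overexpression, against 0 and 0 in 3T3-L1 controls. It had 1, 0 and 0 counts in M27H4 overexpression, against 0, 0 and 0 in M27H4 controls, and 0 and 3 counts in M6 knockdown, against 0 and 0 in M6 controls. A count of 0 allows up to 3 counts, which is 0.00913 to 0.086 CPM depending on the replicate, for counting error only. Miat was therefore not detectable at this depth in most replicates and was not tested.

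Among the snoRNA hosts, Snhg1 and Snhg12 were higher in 3T3-L1 than in both tumour lines, beyond the spread of their replicates. Snhg1 had 98.4 and 86.0 CPM in 3T3-L1 overexpression, against 106.9 and 84.9 CPM in 3T3-L1 controls. It had 53.8, 66.8 and 50.1 CPM in M27H4 overexpression, against 46.7, 39.2 and 47.4 CPM in M27H4 controls, and 37.2 and 42.0 CPM in M6 knockdown, against 31.7 and 54.9 CPM in M6 controls. All 4 replicates of 3T3-L1 lay above all 10 of the tumour lines. Snhg1 rose 2.21-fold in 3T3-L1 control against M6 control (log2 1.15, SE 0.25, adjusted p = 0.00258 by edgeR) and 2.16-fold against M27H4 control (log2 1.11, SE 0.22, adjusted p = 0.00154). M27H4 control and M6 control differed by a log2 fold change of 0.03 (SE 0.23, adjusted p = 0.941). In M27H4, overexpression gave a log2 fold change of 0.36 (SE 0.20), with all 3 treated replicates above all 3 controls but no call. The values were -0.06 (SE 0.25) in 3T3-L1 and -0.13 (SE 0.25) in M6.

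Snhg12 had 88.4 and 76.1 CPM in 3T3-L1 overexpression, against 85.0 and 80.5 CPM in 3T3-L1 controls. It had 25.4, 34.9 and 26.7 CPM in M27H4 overexpression, against 24.9, 33.7 and 21.7 CPM in M27H4 controls, and 17.5 and 19.5 CPM in M6 knockdown, against 13.8 and 21.2 CPM in M6 controls. The 3 lines thus formed separate bands, with treated and control replicates mixed inside each. Snhg12 rose 4.72-fold in 3T3-L1 control against M6 control (log2 2.24, SE 0.27, adjusted p = 1.91e-05 by edgeR) and 3.09-fold against M27H4 control (log2 1.63, SE 0.23, adjusted p = 9.48e-05). For M27H4 control against M6 control the log2 fold change was 0.61 (SE 0.24, adjusted p = 0.0694), and DESeq2 called it at 0.59 (adjusted p = 0.0423). It was also called without M6 control replicate 2 (0.97, adjusted p = 0.0237) and without M27H4 control replicate 3 (0.74, adjusted p = 0.0446), both by edgeR. The treatments gave log2 fold changes of -0.01 (SE 0.25) in 3T3-L1, 0.12 (SE 0.21) in M27H4 and 0.08 (SE 0.26) in M6.

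Gas5 was highest in M6 controls. Its 3T3-L1 and M27H4 controls overlapped (log2 -0.11, SE 0.25, adjusted p = 0.766 by edgeR). It had 56.1 and 49.0 CPM in 3T3-L1 overexpression, against 57.2 and 54.5 CPM in 3T3-L1 controls. It had 54.2, 97.9 and 68.6 CPM in M27H4 overexpression, against 64.0, 55.7 and 61.7 CPM in M27H4 controls, and 88.8 and 109 CPM in M6 knockdown, against 82.7 and 138.7 CPM in M6 controls. All M6 replicates lay above all 3T3-L1 replicates, while M27H4 overexpression reached into the M6 range. Gas5 fell in 3T3-L1 control against M6 control (log2 -0.99, SE 0.28, adjusted p = 0.0123 by edgeR) and in M27H4 control against M6 control (log2 -0.87, SE 0.25, adjusted p = 0.0165). Both calls rest on M6 control replicate 2: without it the values were -0.55 (adjusted p = 0.17) and -0.44 (adjusted p = 0.274). The first was also lost without 3T3-L1 control replicate 2 (adjusted p = 0.0576) and the second without M27H4 control replicate 2 (adjusted p = 0.0554).

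Snhg3 had single high replicates in several groups. It had 18.4 and 8.02 CPM in 3T3-L1 overexpression, against 18.9 and 8.20 CPM in 3T3-L1 controls. It had 3.25, 7.59 and 5.59 CPM in M27H4 overexpression, against 15, 4.28 and 6.25 CPM in M27H4 controls, and 4.37 and 4.70 CPM in M6 knockdown, against 38.9 and 6.51 CPM in M6 controls. M6 control 1 stood far above every other replicate. The log2 fold change in M6 was -2.32 (SE 0.86, unadjusted p = 0.0217, adjusted p = 0.644 by edgeR), and -0.46 without that replicate. None of its line differences was called, except for M27H4 control against M6 control when M6 control replicate 2 was left out (-2.19, adjusted p = 0.0401 by edgeR).

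Mir17hg, the miR-17-92 precursor, was nearly absent from M27H4. It had 0.565 and 0.0799 CPM in 3T3-L1 overexpression, against 5.78 and 1.24 CPM in 3T3-L1 controls. It had 0.0556, 0.0336 and 0.0412 CPM in M27H4 overexpression, against 0, 0.04715 and 0.0163 CPM in M27H4 controls, where the counts behind the values were 0, 9 and 2. It had 0.696 and 0.728 CPM in M6 knockdown, against 1.49 and 0.610 CPM in M6 controls. All 4 M6 replicates lay above all 6 of M27H4.

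The fitted difference of Mir17hg was log2 7.0 (SE 0.97, adjusted p = 8.21e-05 by edgeR) for 3T3-L1 control against M27H4 control and -5.23 (SE 0.94, adjusted p = 0.000798) for M27H4 control against M6 control. With an M27H4 control replicate at 0 counts, the size of both fitted values depends on the prior count and is no bound. In 3T3-L1, overexpression gave -3.40 (SE 0.91, unadjusted p = 0.00238, adjusted p = 1 by edgeR), the smallest unadjusted p of the 9 genes in any treatment contrast. Both treated replicates lay below both controls, and the value was -1.91 without 3T3-L1 control replicate 1. The value was 0.56 (SE 1.05) in M27H4 and -0.53 (SE 0.86) in M6. The M27H4 effect minus the 3T3-L1 effect was 3.97 (SE 1.36, unadjusted p = 0.012, adjusted p = 1 by edgeR).

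Dleu2, the host of miR-15a and miR-16, was called in no treatment or line contrast. It had 6.71 and 4.03 CPM in 3T3-L1 overexpression, against 14.5 and 6.31 CPM in 3T3-L1 controls. It had 4.95, 26.7 and 15.3 CPM in M27H4 overexpression, against 5.75, 13.5 and 4.06 CPM in M27H4 controls, and 17.1 and 8.86 CPM in M6 knockdown, against 15.2 and 12.6 CPM in M6 controls. Every treatment and its control overlapped. The log2 fold change was -0.95 (SE 0.74) in 3T3-L1, 1.01 (SE 0.61) in M27H4 and -0.10 (SE 0.74) in M6.

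Pvt1 varied little within groups and was lowest in M6. It had 23.6 and 19.9 CPM in 3T3-L1 overexpression, against 24.2 and 22.4 CPM in 3T3-L1 controls. It had 15.3, 18.9 and 17.5 CPM in M27H4 overexpression, against 15.7, 16.4 and 17.7 CPM in M27H4 controls, and 6.28 and 7.58 CPM in M6 knockdown, against 5.09 and 4.77 CPM in M6 controls. Pvt1 rose 4.72-fold in 3T3-L1 control against M6 control (log2 2.24, SE 0.21, adjusted p = 2.2e-06 by edgeR) and 3.37-fold in M27H4 control against M6 control (log2 1.75, SE 0.19, adjusted p = 1.41e-05). The call for 3T3-L1 control against M27H4 control was marginal (log2 0.49, SE 0.18, adjusted p = 0.0494) and was lost whichever control replicate was left out (adjusted p 0.0679 to 0.203). In M6 the knockdown replicates lay above both controls, with a log2 fold change of 0.50 (SE 0.20, unadjusted p = 0.0287, adjusted p = 0.692 by edgeR). The value was 0.05 (SE 0.16) in M27H4 and -0.10 (SE 0.20) in 3T3-L1.

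**Figure D2:**
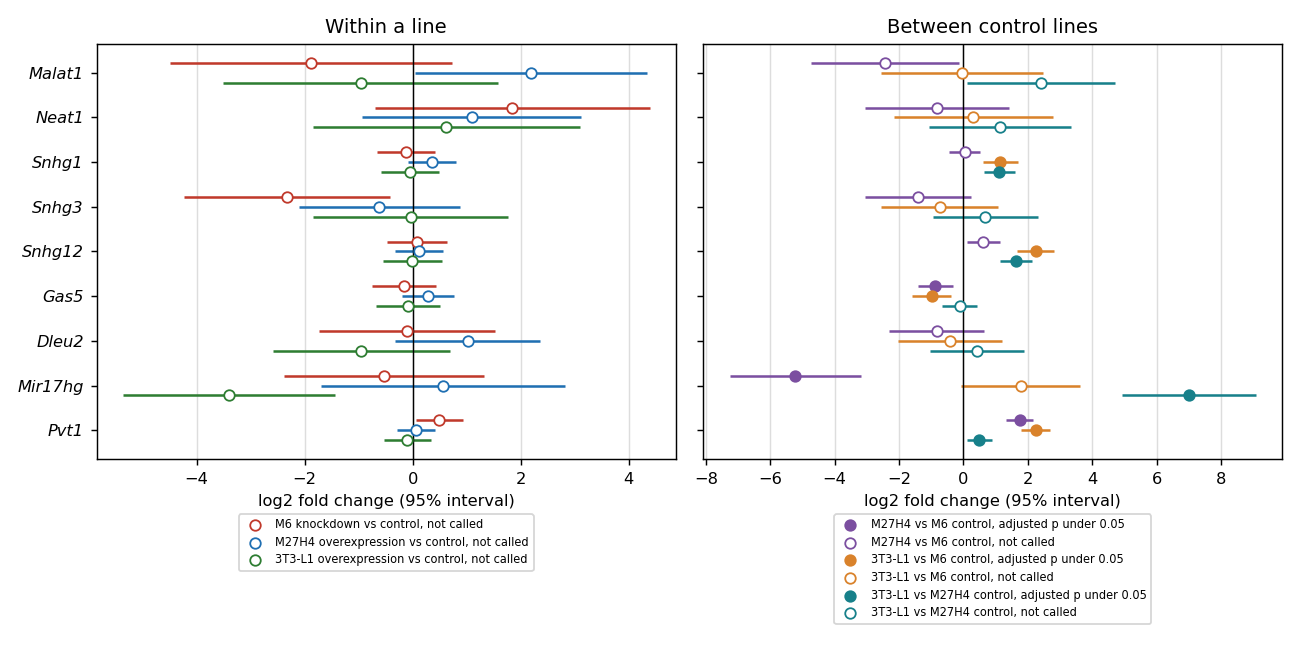
Log2 fold change of 9 lncRNAs with 95% intervals, on the left for treatment against control within each line and on the right between control lines; filled points have an adjusted p under 0.05. All treatment points are open, and the filled points between lines belong to Snhg1, Snhg12, Gas5, Mir17hg and Pvt1.

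Levels can be compared between genes only per length, so CPM per kilobase of exon was used. Exon length was the union over all annotated transcripts. It equalled the whole locus for Snhg1 (2969 bases) and Snhg12 (2402 bases). It was 3760 of 4118 bases for Gas5 but 986 of 5673 bases for Snhg3. Introns of some hosts thus count as exon, and the order of the hosts depends on that. In 3T3-L1 controls Malat1 (34.6 ± 15.6), Snhg12 (34.4 ± 1.31) and Snhg1 (32.3 ± 5.25 CPM per kilobase, SD, n = 2) led and did not differ beyond their spread, followed by Gas5 at 14.8 and Snhg3 at 13.8. In M27H4 controls Gas5 (16.1 ± 1.14), Snhg1 (15 ± 1.52) and Snhg12 (11.1 ± 2.57 CPM per kilobase, SD, n = 3) led, with neighbours within their spread, and Malat1 stood at 6.54 ± 2.64. In M6 controls Malat1 (35.5 ± 38.4), Gas5 (29.4 ± 10.5), Snhg3 (23.0 ± 23.2) and Snhg1 (14.6 ± 5.52 CPM per kilobase, SD, n = 2) led, with wide overlap. In the controls of every line Neat1, Dleu2, Pvt1 and Mir17hg averaged below 4 CPM per kilobase.

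Some of the spread of Malat1 and Neat1 was already present between columns of the same library. The column names carry codes that are read here as library and lane. For 5 libraries the same library code appears under a pair of consecutive lane codes, called lane B for the higher code and lane A for the lower. For Malat1, lane B had 98.2 CPM and lane A had 21.9 CPM in M6 control 2, a 4.49-fold difference. In 3T3-L1 control 1, lane B had 515.5 CPM and lane A had 97.7 CPM, a 5.27-fold difference. The other 3 libraries were closer, with lane B at 124.0 against 129.4 CPM in 3T3-L1 overexpression 1, 102.1 against 84.1 CPM in M27H4 overexpression 2 and 43.0 against 32.3 CPM in M27H4 control 2.

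Neat1 differed more, and in both directions. In 3T3-L1 overexpression 1 it had 18.2 CPM in lane B and 255.5 CPM in lane A, 14-fold apart. In M27H4 overexpression 2 it had 108.4 CPM in lane B and 21.3 CPM in lane A, while in M27H4 control 2 it had 10.6 CPM in lane B and 40.2 CPM in lane A. It was even in M6 control 2 (8.91 against 9.02 CPM) and in 3T3-L1 control 1 (70.4 against 69.8 CPM). No lane was thus the higher one in all libraries.

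Both microRNA hosts also differed between lanes, while Snhg1, Gas5 and Pvt1 differed little. Dleu2 had 5.72 CPM in lane B and 21.4 CPM in lane A of M27H4 control 2, and Mir17hg had 9.03 CPM in lane B and 2.13 CPM in lane A of 3T3-L1 control 1. The largest ratio between lanes in any library was 1.86 for Snhg3, 1.34 for Snhg12, 1.15 for Gas5, 1.11 for Snhg1 and 1.08 for Pvt1. Of 11053 genes with at least 5 CPM, 603 (5.46%) had a largest ratio of at least 2, and the median largest ratio was 1.10. In that ranking 57 genes lay above Neat1 and 131 above Dleu2, against 3869 above Gas5, 5020 above Snhg1 and 6262 above Pvt1. Malat1 was chosen with its lane difference known, so its place, with 88 genes above it, is a description only. Why these few genes move between columns of the same library was not tested.

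**Figure D3:**
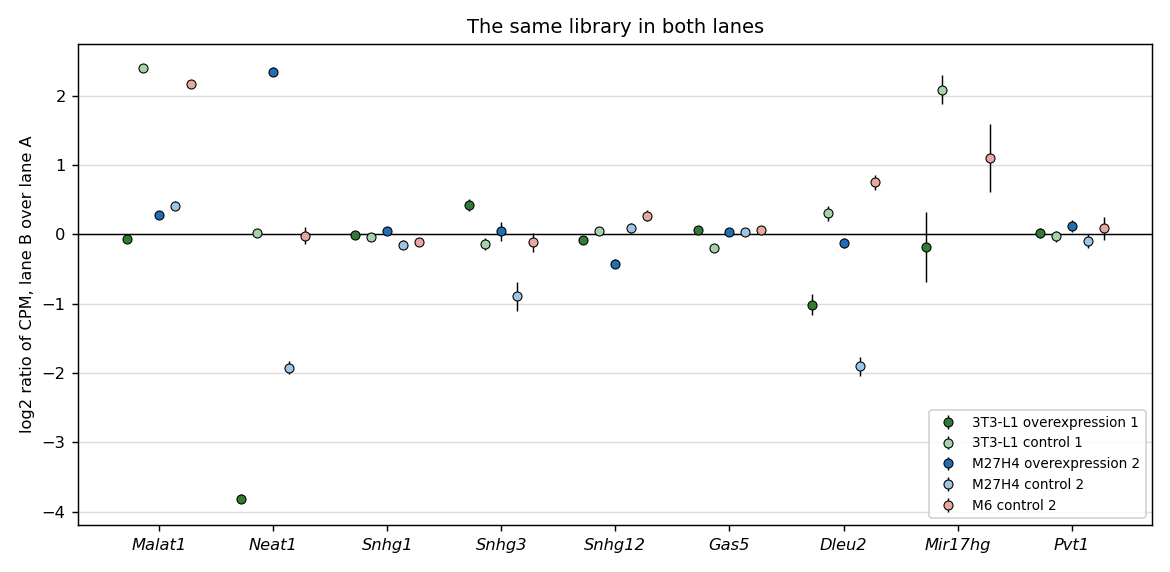
Log2 ratio of CPM in lane B over lane A for each lncRNA, 1 point for each library with both columns and exact 95% counting intervals. Snhg1, Gas5 and Pvt1 stay near 0, while Malat1, Neat1, Dleu2 and Mir17hg spread widely, down to a ratio of 14 against lane B for Neat1.

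A paired test of lane within library across 17602 genes called 0.00568% of all genes. Malat1 is left out of its count, because it was chosen with its lane difference known. Of the other lncRNAs tested, edgeR called 0, with 1 at an unadjusted p under 0.05, and DESeq2 called 0. Malat1, whose lane difference was known beforehand, had a log2 difference of lane B minus lane A of 1.02. That of Mir17hg was 1.05 (SE 0.40, unadjusted p = 0.0404 by edgeR), that of Neat1 -0.65 (SE 1.01) and that of Dleu2 -0.38 (SE 0.42). Lane B was the higher one in 4 of 5 libraries for Malat1 and in 2 of 5 each for Neat1 and Dleu2.

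By transcript, the large lane differences of Malat1 and Neat1 lay in the longest transcript of each gene. The annotated Malat1 transcript of 6983 bases, a single exon called long Malat1 here, ran from 5.96 to 475 CPM over the 21 columns, 79.7-fold. All other Malat1 transcripts together ran from 15.9 to 93.4 CPM, 5.89-fold. Long Malat1 held between 23.0% and 93.1% of the gene's counts. In 3T3-L1 control 1 it had 475.1 CPM in lane B and 52.6 CPM in lane A, while the other transcripts had 40.4 CPM in lane B and 45.2 CPM in lane A. In M6 control 2 long Malat1 had 81.0 CPM in lane B and 6.02 CPM in lane A. The high replicates had the same form: long Malat1 reached 436 CPM in M27H4 overexpression 3 and 437 CPM in M6 control 1.

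For Neat1, the 20771-base transcript, called long Neat1 here, ran from 5.71 to 254 CPM over the 21 columns, 44.6-fold, and held between 64.1% and 99.6% of the gene's counts. The other Neat1 transcripts ran from 0.229 to 7.24 CPM, 31.6-fold. The spread of Neat1 over all columns was thus not confined to long Neat1. Of the Malat1 counts outside long Malat1, 67.0% to 83.8% belonged to 1 transcript identifier that has no entry in GENCODE M21, so these other transcripts cannot be described as spliced or unspliced. Transcript counts are estimates that divide shared reads among overlapping transcripts. Whether the division itself differed between columns was not tested.

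**Figure D4:**
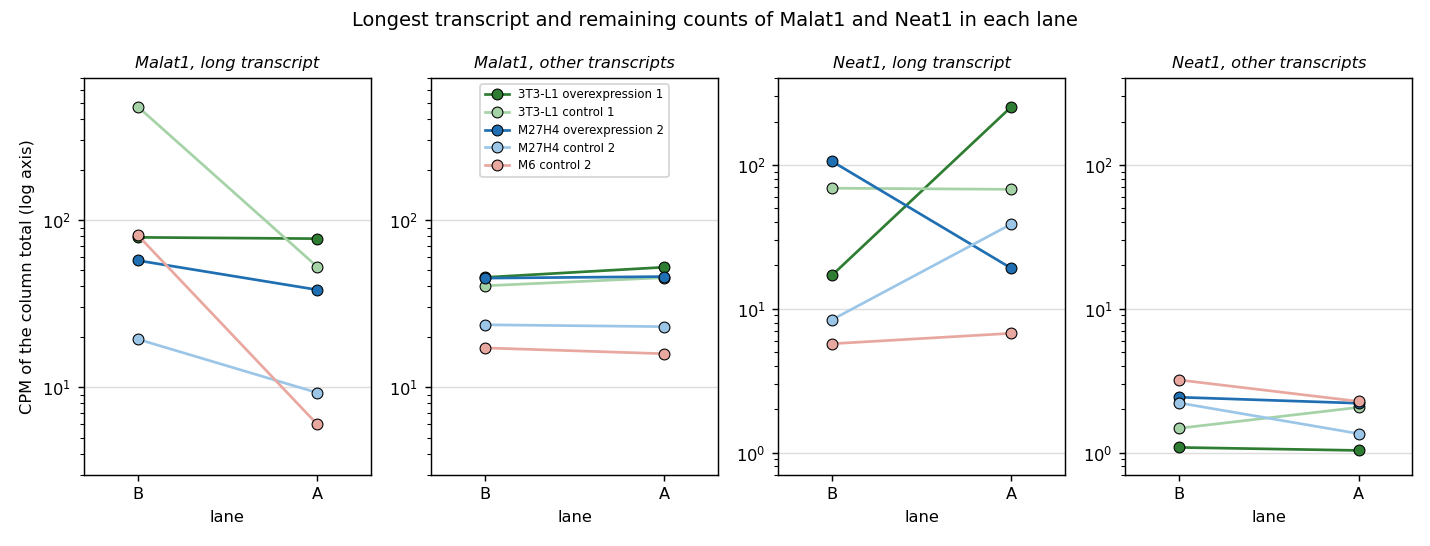
CPM of long Malat1, the other Malat1 transcripts, long Neat1 and the other Neat1 transcripts in lane B and lane A of 5 libraries. Long Malat1 separates the lanes in 3T3-L1 control 1 (475.1 against 52.6 CPM) and M6 control 2 (81.0 against 6.02 CPM), where the other Malat1 transcripts stay close.

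Without long Malat1, a setting chosen after the data were seen, Malat1 had no replicate as far above its group as M27H4 overexpression 3 and M6 control 1 had been, while the 3T3-L1 replicates were no closer to each other than for the whole gene. It then had 47.9 and 57.3 CPM in 3T3-L1 overexpression, against 42.5 and 91.5 CPM in 3T3-L1 controls. It had 19.5, 45.2 and 33.1 CPM in M27H4 overexpression, against 27, 24.8 and 19 CPM in M27H4 controls, and 36.0 and 21.4 CPM in M6 knockdown, against 33.9 and 18.4 CPM in M6 controls. The treatment log2 fold changes shrank to -0.35 in 3T3-L1, 0.47 in M27H4 and 0.14 in M6, with none called. Both 3T3-L1 line differences were called: 1.36 (SE 0.44, adjusted p = 0.0267 by edgeR) against M6 control and 1.51 (SE 0.39, adjusted p = 0.0088) against M27H4 control. The lane difference of Malat1 was then -0.05 (SE 0.05). Neat1 without long Neat1 was scarce, and its treatment log2 fold changes turned to -0.50 in 3T3-L1, -0.77 in M27H4 and -0.59 in M6, none of them called.

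Small RNA genes that lie inside these loci were looked at after the data were seen. Snhg1 holds 8 snoRNA genes, Gas5 10, Snhg12 5 and Snhg3 2, and Mir17hg holds 6 microRNA genes and Dleu2 2. Of the nested genes 18 passed the filter, and none was called in a treatment contrast. Unadjusted p under 0.05 was reached by 0 in 3T3-L1, 2 in M27H4 and 0 in M6. The 86-base Gm27694 at chr19:5799000-5799085, inside the Malat1 exon, had 48.3 and 50.7 CPM in 3T3-L1 overexpression, against 36.9 and 86.1 CPM in 3T3-L1 controls. It had 19.6, 46.4 and 27.5 CPM in M27H4 overexpression, against 28.2, 26.4 and 17.2 CPM in M27H4 controls, and 27.3 and 19 CPM in M6 knockdown, against 22.3 and 14.6 CPM in M6 controls.

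Gm27694 thus lacked the high replicates of the whole Malat1 gene, and its largest ratio between lanes was 1.21. It was called at log2 1.74 (adjusted p = 0.0075 by edgeR) for 3T3-L1 control against M6 control and at 1.36 (adjusted p = 0.0153) for 3T3-L1 control against M27H4 control. Snora73b, a snoRNA in Snhg3, was called at 1.38 (adjusted p = 0.0377) for 3T3-L1 control against M27H4 control. Snora73a, its neighbour, stood at 29.0 CPM in M6 knockdown 1, 55.5 CPM in M27H4 overexpression 1 and 29.7 CPM in M27H4 control 1 but at 0.269 to 2.26 CPM in the other 11 replicates. Reads in a nested gene may come from its host, and the 2 were not separated here.

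The other snoRNA hosts showed the same direction between lines as Snhg1 and Snhg12 in most cases. Of 17 listed, 12 were tested. In 3T3-L1 control against M6 control 10 rose, where 20.5% of all genes rose, and the median log2 fold change of the 12 was 1.53, against 0.0483 over all genes. Snhg14 rose by 4.80 (log2), Snhg15 by 2.15, Snhg17 by 1.65 and Snhg8 by 1.41. In 3T3-L1 control against M27H4 control 11 rose, where 18.9% of all genes rose, with a median of 1.70 against 0.0185 over all genes. Snhg18 rose by 6.64, Snhg14 by 6.32, Zfas1 by 2.03 and Snhg8 by 1.81. Snhg14 averaged 6.01 CPM in 3T3-L1 controls, 0.0718 CPM in M27H4 controls and 0.224 CPM in M6 controls. Snhg18 averaged 0.167 CPM in M27H4 controls. Snhg9, which is in both counts, averaged 0.254 CPM in 3T3-L1 controls, 0.0159 CPM in M27H4 controls and 0.0136 CPM in M6 controls. It passed the filter through 3T3-L1 only, so its rise carries no weight. In M27H4 control against M6 control 2 fell, Snhg18 by 4.86 and Epb41l4aos by 0.96, with a median of -0.31 against 0.021 over all genes.

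In levels, Snhg8 had 57.0 ± 10.9 CPM in 3T3-L1 controls (SD, n = 2), 16.2 ± 1.98 CPM in M27H4 controls (SD, n = 3) and 21.4 ± 8.52 CPM in M6 controls (SD, n = 2). Zfas1 had 74.5 ± 1.47 CPM in 3T3-L1 controls, 18.2 ± 3.60 CPM in M27H4 controls and 30.6 ± 13.0 CPM in M6 controls. Gas5 thus stood against the direction of most hosts in 3T3-L1 against M6. The fibroblast markers moved with the same lines, and their part in these differences was not tested.

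**Figure D5:**
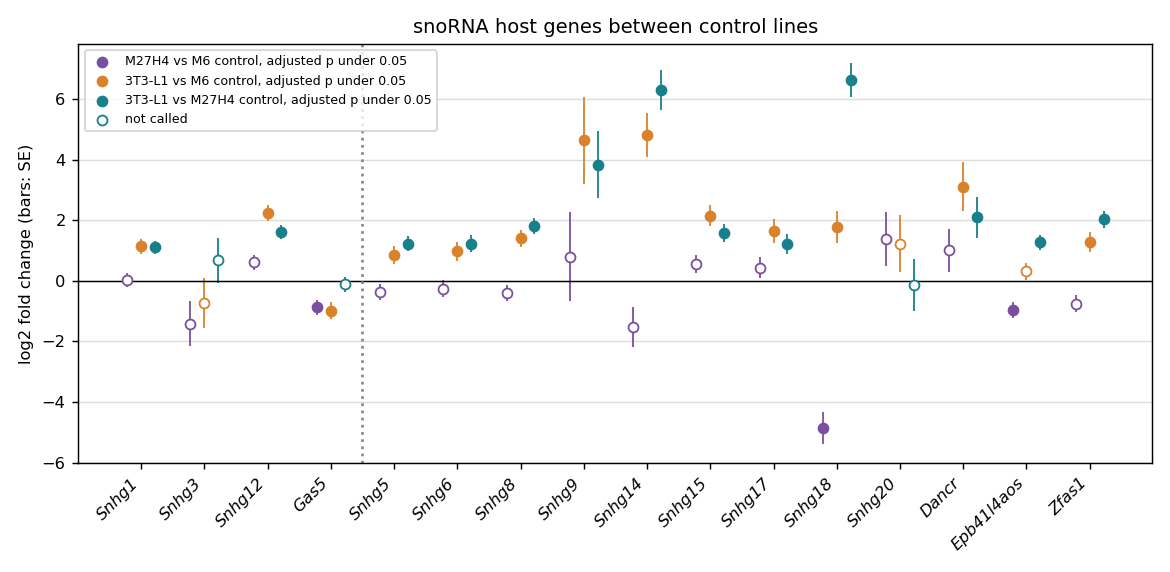
Log2 fold change between control lines for Snhg1, Snhg3, Snhg12 and Gas5, left of the dotted line, and 12 other snoRNA hosts, right of it; bars are standard errors and filled points have an adjusted p under 0.05. Most hosts lie above 0 for 3T3-L1 control against both tumour lines. Gas5 and, without a call, Snhg3 lie below 0 against M6, and Gas5 lies near 0 against M27H4.

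Genes that act with these RNAs were followed in lists of snoRNP, paraspeckle, speckle, decay and microRNA-processing genes, other nuclear lncRNAs, other microRNA hosts and Myc or E2f factors. Over the lists, snoRNA hosts included, 93 genes were tested and 0 were called by edgeR in any treatment contrast. Unadjusted p under 0.05 was reached by 1 in 3T3-L1, 1 in M27H4 and 3 in M6. Between control lines 33 of 93 were called in 3T3-L1 against M6, where 39.4% of all genes were, and 33 in 3T3-L1 against M27H4, where 36.6% of all genes were. In M27H4 against M6 16 of 93 were called, where 30.2% of all genes were, so the lists as a whole did not exceed the background.

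Among 10 snoRNP genes 2 were called higher in 3T3-L1 controls against M6, where 20.5% of all genes were, and 2 against M27H4, where 18.9% were. These counts are near their backgrounds. Nop56, a core protein of box C/D particles, rose by 1.47 (log2) against M6 and 0.82 against M27H4. Naf1, an assembly factor of box H/ACA particles, rose by 1.00 against M6 and 0.88 against M27H4. None of the 10 was called in M27H4 against M6. Among 15 paraspeckle genes, Pspc1 fell in 3T3-L1 controls by 0.52 against M6 and by 0.86 against M27H4, and Nono fell by 0.73 against M6. Hnrnpk rose by 0.54 against M27H4. Among 13 speckle genes, Pnn fell by 1.09 and Srsf5 by 0.99 in 3T3-L1 against M6, while Elac2, the nuclease that trims tRNA 3′ ends, rose by 0.68.

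Among 10 decay genes 1 was called higher and 3 lower in 3T3-L1 against M27H4. One of the lower genes was Smg6, the endonuclease of nonsense-mediated decay, which fell by 1.22. Among 10 microRNA-processing genes, Dicer1, the enzyme that cuts precursors, fell by 1.06 and Xpo5, their exporter, rose by 1.08 in 3T3-L1 against M6. Dgcr8, the partner of Drosha, rose by 0.61 in 3T3-L1 against M27H4. Among 8 Myc and E2f genes 1 was called higher and 2 lower in 3T3-L1 against M6, with a median log2 fold change of 0.11. Against M27H4 the counts were also 1 and 2, with a median of -0.09. The called falls were Mycn, by 8.29 against M6 and 7.5 against M27H4, and E2f2, by 2.60 against M6 and 1.91 against M27H4. The levels of Mycn are not given here, and the size of its fall is no bound where a group is near the detection floor.

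Of 9 tested nuclear lncRNAs, Xist, the RNA of X inactivation, fell by 7.91 and the imprinted Kcnq1ot1 rose by 7.38 in 3T3-L1 against M6. In 3T3-L1 against M27H4 3 were called higher and 2 lower, and Airn rose by 8.56. Of 6 tested microRNA hosts, Mir22hg rose in 3T3-L1 by 2.00 against M6 and by 1.47 against M27H4, and Mir99ahg rose by 4.14 against M6 and by 2.05 against M27H4. H19 fell by 7.45 in M27H4 against M6. The levels behind these large differences are not given here, and their size is no bound where a group is near the detection floor.

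Of the nearest protein-coding genes, Slc3a2, which lies 106 bases from Snhg1, rose by 1.60 (log2) in 3T3-L1 control against M6 control, where Snhg1 rose, and by 1.29 in M27H4 control against M6 control, where Snhg1 was not called. Trnau1ap, 739 bases from Snhg12, was called in no comparison. Myc, 47612 bases from Pvt1, was not called between lines: its log2 fold change was 0.63 (adjusted p = 0.281 by edgeR) for 3T3-L1 against M6, -0.07 (adjusted p = 0.922) for 3T3-L1 against M27H4 and 0.70 (adjusted p = 0.229) for M27H4 against M6.

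The genes with the most similar pattern were found by Pearson's r of log2(CPM + 0.5) over the 14 replicates among 10305 genes with a mean of at least 5 CPM. The replicates share lines and lanes, so r describes the pattern and carries no test. Pvt1 was closest to Arhgap29 and Aldh1l2 (r = 0.98 for each) and Snhg12 to Ifi211 and Pdlim1 (r = 0.98 for each). Snhg1 was closest to Naa20 and Mtx2 (r = 0.96 for each) and Gas5 to Snrpd1 and Sf3b6 (r = 0.92 for each). The RNAs that varied between lanes had looser partners: r was 0.87 for Mir17hg with Gmps, 0.81 for Neat1 with Rbm26, 0.81 for Dleu2 with Zfp101, 0.79 for Snhg3 with Rnf44 and 0.75 for Malat1 with Nkapd1.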

How the data were processed

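Per the submitters' processing notes, the authors used cutadapt, HISAT2, StringTie and edgeR with mm10 (GRCm38), and no versions are given. The deposited gene and transcript tables hold estimated counts (expected counts) as whole numbers, and normalised tables were not used here. In each of those, 1 column matched no sample. Of 48440 gene identifiers 48058 matched GENCODE M21, and the rest held 0.0515% of counts. Technical replicates were summed as the labels give them, which made 14 replicates from 21 columns. In M6 knockdown replicate 2 the technical replicates carry different library codes. In M6 control replicate 2 those of lanes A and B share a library code, and the remaining one carries another. The lane codes of M6 replicate 2 also differ in part between knockdown and control.

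Counts were tested with edgeR 4.0.16 in R 4.3.3: filterByExpr left 21237 genes, libraries were scaled by TMM, and a single robust quasi-likelihood model covered 6 groups with 8 residual degrees of freedom. Standard errors (SE) were derived from the fold change and its F statistic. DESeq2 1.42.0, other filters, single lanes, a replicate block, each replicate left out and Malat1 and Neat1 without their longest transcript were alternatives. The scripts were tested on simulated data. Replicate CPM use the effective library size and column CPM the column total; intervals and floors reflect counting error alone, because reads here have no molecular identifiers. Deviations of same-numbered samples correlated at 0.353, 0.249 and 0.240 in M27H4, where those samples also share lane codes. The numbers were therefore taken to pair those samples. With only 2 pairs the correlation was 0.334 in M6 and 0.245 in 3T3-L1. The main model has no replicate block, so the SE and p-values given for single genes leave this pairing out.

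All 10 lncRNAs were named in every contrast, with up to 4 called genes of smallest p from each other list, the nearest protein-coding genes and the 2 most similar genes. Single values of some genes that this rule names are not reported here. The genes, lists and tests were chosen with earlier results of these data known.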

Additional observations from a re-analysis of the deposited data

How the results depend on the processing

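In the 3 treatment contrasts and their difference, 0 of the 9 lncRNAs were called under every alternative run, each replicate left out included. The same held in the lane test for the lncRNAs other than Malat1. DESeq2 called 5 of 9 for M27H4 control against M6 control, against 3 by edgeR, adding Malat1 and Snhg12. Leaving out 1 replicate gave 2 to 4 calls there, 3 to 4 for 3T3-L1 control against M6 control and 3 for 3T3-L1 control against M27H4 control. Mir17hg, Snhg1 and Snhg12 kept their direction and call in 3T3-L1 control against M27H4 control.

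With the replicate number as a block, calls over all genes were 293 in M6, 1 in M27H4, 0 in 3T3-L1 and 0 for the difference of effects, against 29, 2, 1 and 1 without it; 0 of the 9 were called in each. DESeq2 called 228 genes in M6, 4 in M27H4, 13 in 3T3-L1, 10 for the difference and 19 between lanes. Fitting the groups of a contrast alone called 0 genes in M6, 1 in M27H4, 4 in 3T3-L1 and 0 for the difference. Without the filter the count was 64 in M6, 2 in 3T3-L1 and 3 between lanes.

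Signs turned for differences that were not called, and the cause was not tested. Without the filter, Snhg1 was -0.01 for M27H4 control against M6 control and Gas5 0.02 between lanes. With lane A only, Dleu2 was 0.04 in M6 and -0.16 for 3T3-L1 control against M27H4 control, Snhg12 0.03 in 3T3-L1 and Neat1 -1.34 for the difference of effects. With lane B only, Neat1 was -1.40 and Snhg3 0.14 in 3T3-L1, and Malat1 0.39 for 3T3-L1 control against M6 control. With only the M6 columns of the lowest lane code, Snhg1 was 0.10 and Gas5 0.11 in M6, and Malat1 0.06 for 3T3-L1 control against M6 control. Without their longest transcripts, Malat1 was 0.14 in M6, 1.36 for 3T3-L1 control against M6 control and -0.05 between lanes. Neat1 was then -0.59 in M6, -0.77 in M27H4, -0.50 in 3T3-L1, -0.27 for the difference, -2.03 for 3T3-L1 control against M6 control, -1.14 for 3T3-L1 control against M27H4 control and 0.19 between lanes.

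Leaving out each replicate turned the sign of 32 results, with these ranges. In M6, Malat1 ran -2.70 to 0.29, Snhg1 -0.41 to 0.33, Snhg12 -0.13 to 0.43, Gas5 -0.43 to 0.27, Dleu2 -0.64 to 0.29 and Mir17hg -1.05 to 0.29. In M27H4, Snhg3 ran -0.94 to 0.07, Snhg12 -0.03 to 0.32 and Pvt1 -0.01 to 0.13. In 3T3-L1, Neat1 ran -1.39 to 1.52, Snhg1 -0.23 to 0.12, Snhg3 -0.76 to 0.69, Snhg12 -0.12 to 0.10, Gas5 -0.19 to 0.01 and Pvt1 -0.23 to 0.02. For the difference of effects, Neat1 ran -0.43 to 2.47, Snhg3 -1.32 to 0.14 and Snhg12 -0.02 to 0.34. For M27H4 control against M6 control, Neat1 ran -1.59 to 0.95, Snhg1 -0.31 to 0.50 and Snhg3 -2.19 to 0.39. For 3T3-L1 control against M6 control, Malat1 ran -0.84 to 2.06, Neat1 -0.66 to 2.09, Snhg3 -1.54 to 1.07 and Dleu2 -1.18 to 0.03. For 3T3-L1 control against M27H4 control, Snhg3 ran -0.05 to 1.37 and Dleu2 -0.29 to 1.10. Between lanes, Neat1 ran -1.37 to 0.09, Snhg3 -0.27 to 0.06, Snhg12 -0.09 to 0.08, Gas5 -0.02 to 0.04 and Pvt1 0.00 to 0.05. With 2 or 3 replicates a group, differences of the size seen for Malat1, Neat1 and Snhg3 were not resolved at this spread.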
